A study of Homo sapiens with 6 samples.

Results

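The genes described here are the interleukins, their receptors and antagonists, and the colony-stimulating factor and interferon receptor genes measured in THP-1 cells with and without a hairpin RNA against RKIP. They were taken by gene symbol: IL followed by a digit except IL1RL1, any symbol starting TNFSF or TNFRSF, and a short list of CSF and interferon receptor genes, without antisense names. This gave 59 members among 14884 genes tested, each read by the probe with the highest mean over the 6 arrays. Of the members, 57 were protein-coding and 2 were long non-coding RNAs. The symbols did not deliver the TNF superfamily. The only member with such a name was TNFRSF10A-DT, a non-coding transcript that starts divergently from TNFRSF10A. TNF superfamily ligands and receptors with TNFSF or TNFRSF names are therefore not analysed here. The other families were covered only in part: IL1A, IL1B, IL6, IL1R1, IL6ST and IL10RB had no named probe. Nor had CSF2, CSF2RA, CSF2RB, IFNAR1 and IFNAR2 of the short list. Statements below on ligands and receptor chains concern the measured members only. By role, 32 members were ligands or antagonists, 24 were receptor chains, and 3 entered by name alone (IL4I1, IL10RB-DT and TNFRSF10A-DT).

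THP-1 is an established human acute monocytic leukaemia line. Both groups were lentivirally transduced with the vector psi-LVRU6GP, which carried the RKIP shRNA in 1 group and was empty in the control group, and both were kept under puromycin at 1.5 µg/mL. The control is therefore an empty vector and is not described as a non-targeting hairpin. There were 3 arrays per group. Their labels call them biological replicates without saying whether the cells were transduced separately, so the spread behind each p-value may be technical. The comparison asked which genes differ between cells with the RKIP shRNA and cells with the empty vector. Effects of carrying a hairpin cannot be told apart from those of lower RKIP in this design. RKIP, encoded by PEBP1, is an inhibitor of the RAF kinases that also binds kinases of the NF-kB pathway.

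Interleukins are secreted proteins through which leukocytes signal to each other. Most act on paired receptor chains. The IL-6 and IL-4 families and G-CSF use chains that carry JAK kinases and activate STAT factors. The IL-1, IL-18, IL-33 and IL-36 receptors recruit MYD88 and IRAK kinases and activate NF-kB. Several chains are shared, so that IL1RAP serves the IL-1, IL-33 and IL-36 receptors and IL17RA serves several IL-17 receptors. Decoys and antagonists such as IL18BP, IL1RN and IL36RN hold these systems in check.

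The targeted gene was lower on every RKIP shRNA array. PEBP1 read 9.52, 9.77 and 9.75 on the control arrays and 8.25, 8.18 and 8.24 on the RKIP shRNA arrays (log2 values as deposited), a change of -1.46 (SE 0.09, limma adjusted p = 0.000228). Permuting the group labels (exact, two-sided) gave p = 0.10 for it, the smallest that 3 arrays against 3 allow. Array medians lay between 4.06 and 4.10, and the median of all rows, 4.08, serves below as the limit under which a group mean is called dim, because background compresses changes there. Of 6 measured monocytic and myeloid markers, MPO, SPI1, LYZ and CD68 rose, CSF1R did not pass and CD14 was dim in both groups. Their summed linear level ran from 7564 to 7990 in control and from 10149 to 10839 in RKIP shRNA arrays. MPO, with log2 means of 12.76 in control and 13.03 in RKIP shRNA arrays, makes up most of these sums. LYZ rose from 7.55 to 10.09, and the sums say little about the other markers. Of 4 measured eosinophil, basophil and mast cell markers, CLC, EPX and HDC rose and CPA3 was dim in both groups, with sums of 129 to 137 against 4045 to 4432. Of 3 NK cell markers NKG7 rose, with sums of 127 to 139 against 222 to 237, and GNLY and NCAM1 were dim in both groups. Among 3 T cell, 1 B cell, 3 epithelial and 1 fibroblast marker, CD5 rose and KRT18 fell, with sums of 62 to 70 against 65 to 68 for the T cell list and 353 to 373 against 295 to 309 for the epithelial list. None of these probes read 0. The part of these marker changes in the results below was not tested, and in bulk RNA more cells of a kind and more RNA per cell cannot be told apart.

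A minority of the members changed, among them IL18, which fell, and the receptor chains IL6R and IL1RAP, which rose. Of 59 members 7 rose, 2 fell and 50 did not pass (limma, Benjamini-Hochberg adjusted p under 0.05 over all genes tested). The 9 called were 2 of 32 ligands and antagonists, 5 of 24 receptor chains and 2 of the 3 that entered by name alone. The called share was 15.3%, against 20.2% of all genes; 11.9% rose against 10.0% of all genes, and 3.39% fell against 10.2%. These shares are near or below those of all genes. Brightness went with the calls: 8 of the 26 members whose mean was at or above 4.08 were called, or 30.8%, against 29.2% of all genes as bright, and 1 of 33 dimmer members was, or 3.03%, against 3.66% of all genes as dim. The groups did not overlap for 18 members, or 30.5%, against 37.9% of all genes. The median log2 change was 0.12 over the members and 0.02 over all genes.

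**Figure D1:**
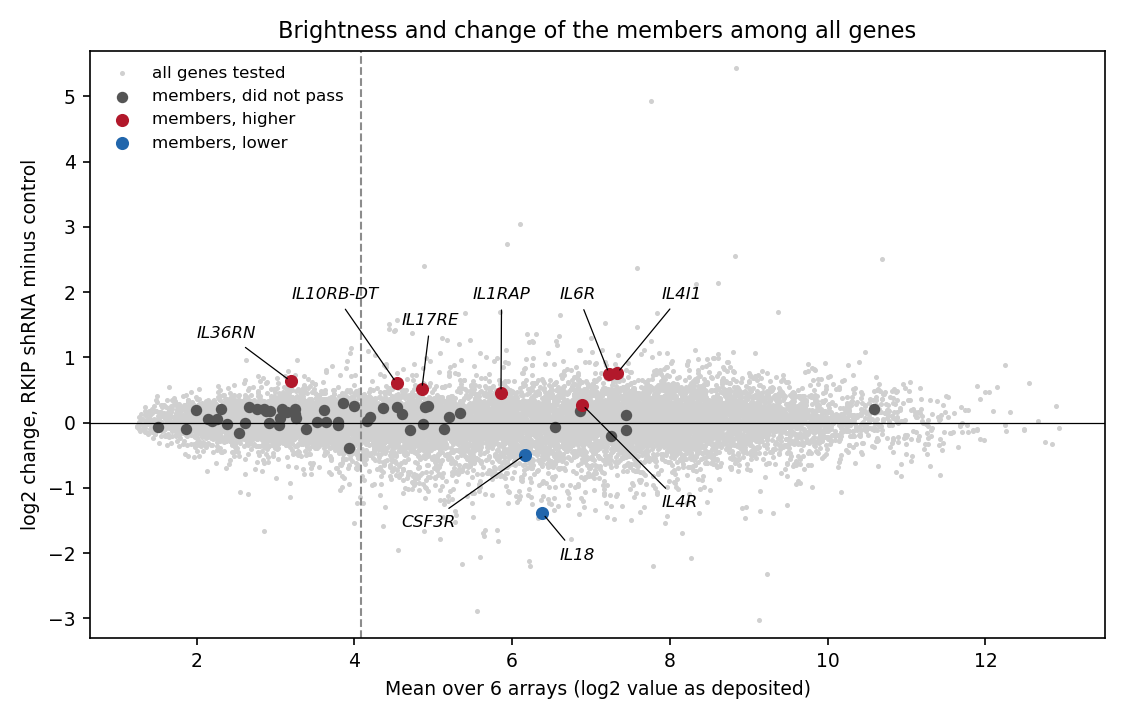
Mean log2 value over the 6 arrays (horizontal, dashed line at the median of all rows, 4.08) against the log2 change, RKIP shRNA minus control (vertical), for all 14884 genes (light grey) and the 59 members (dark grey, red where higher and blue where lower at adjusted p under 0.05). Of the 9 called members only IL36RN lies left of the dashed line, and IL18 lies lowest of the members at -1.39.

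IL18 was the member with the largest change and the ligand that fell. It encodes interleukin 18, an IL-1 family cytokine made as an inactive precursor that caspase-1 cleaves in the inflammasome. It read 7.29, 6.98 and 6.96 on the control arrays and 5.76, 5.54 and 5.76 on the RKIP shRNA arrays. All RKIP shRNA arrays lay more than 1 log2 unit below the lowest control array. The change was -1.39 (SE 0.12, 95% interval -1.66 to -1.12, adjusted p = 0.0006), which is 2.62-fold lower, and it stayed between -1.45 and -1.28 when single arrays were left out.

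The rest of the IL-18 system did not pass the test. IL18R1, the chain that binds IL-18, read 7.37, 7.34 and 7.37 in control and 7.12, 7.13 and 7.21 in RKIP shRNA arrays. Its groups did not overlap, but the change of -0.21 (SE 0.06) had an adjusted p of 0.065. IL18RAP, the accessory chain, had a change of 0.26 ± 0.15 (SE, adjusted p = 0.30) and was dim in control arrays. IL18BP, the soluble decoy of IL-18, stood at 6.57 ± 0.07 in control and 6.51 ± 0.08 in RKIP shRNA arrays (SD, n = 3 each), a change of -0.07 with a 95% interval from -0.25 to 0.11 (limma adjusted p = 0.62).

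IL36RN was the only ligand-class member that rose, from dim values. It encodes the antagonist of the IL-36 receptor. It read 2.64, 2.72 and 3.26 in control and 3.46, 3.57 and 3.50 in RKIP shRNA arrays, a change of 0.63 (SE 0.16, adjusted p = 0.031). Control replicate 3 was the high control array. The call held without that array (adjusted p = 0.0041) and was lost without any other single array (adjusted p up to 0.0998). IL1RL2, the receptor chain on which this antagonist acts, was dim in both groups, with a change of 0.17 ± 0.11 (SE, adjusted p = 0.34).

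The other 30 ligands and antagonists had log2 changes between -0.39 and 0.29, and 3 of them had an unadjusted p under 0.05. Among those above 4.08 in both groups, IL11, a cytokine of the IL-6 family, came nearest to the threshold with a change of 0.24 ± 0.09 (SE, adjusted p = 0.097) and groups that did not overlap. IL17D stood at 5.16 ± 0.19 in control and 5.25 ± 0.26 in RKIP shRNA arrays (SD, n = 3 each; limma adjusted p = 0.75), and its sign turned without control replicate 2 (-0.02) or RKIP shRNA replicate 2 (-0.06). CSF3, IL27, IL16, CSF1, IL17B and IL17C were also above this limit and did not pass. IL32, a cytokine gene of lymphocytes and monocytes, had a change of -0.39 (SE 0.22, adjusted p = 0.28): RKIP shRNA replicate 2 read 3.25 and replicate 3 read 4.20, so the groups overlapped. A total of 21 ligands and antagonists were dim in both groups. IL13, a type 2 cytokine, had the largest change among those of them that did not pass, 0.29 (SE 0.12, adjusted p = 0.13), and reached an adjusted p of 0.043 without control replicate 2. The remaining dim ones were IL1RN, IL2, IL4, IL7, IL10, IL15, IL17A, IL17F, IL19, IL20, IL21, IL22, IL24, IL25, IL26, IL31, IL33, IL34 and IL37. For these the arrays could show no more than that no change passed.

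**Figure D2:**
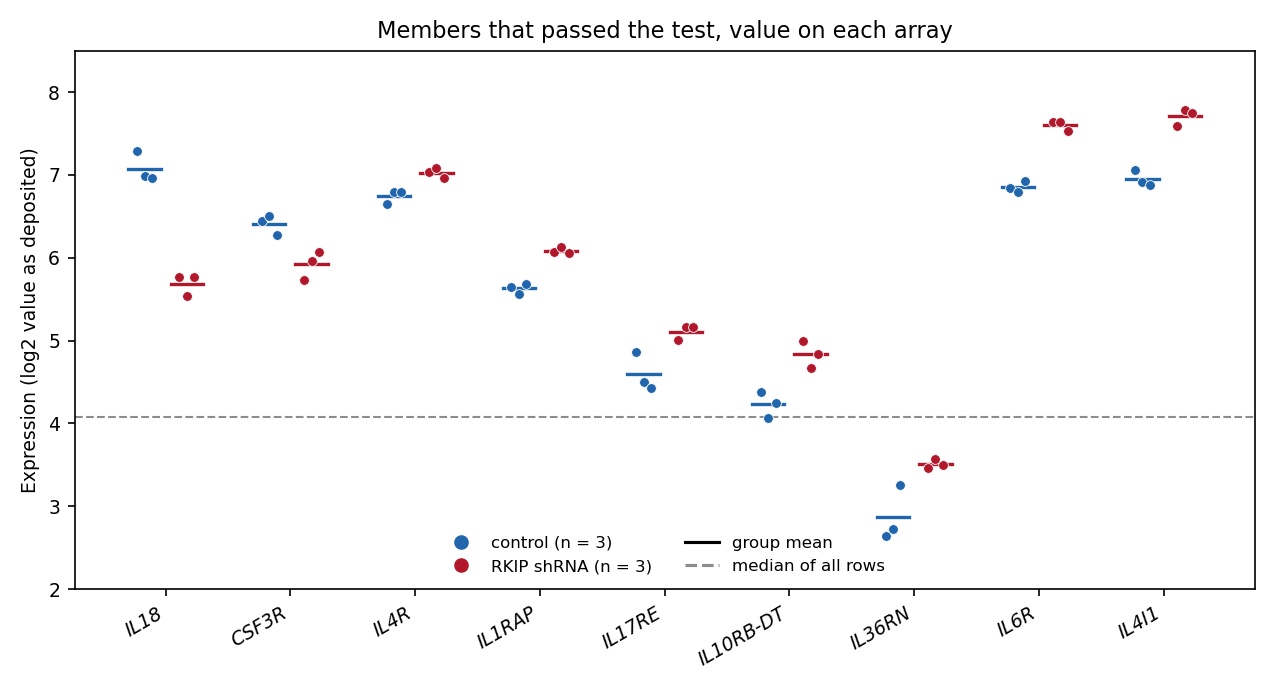
Log2 value as deposited (vertical) of the 9 members that passed the test, on each of 3 control arrays (blue) and 3 RKIP shRNA arrays (red), with group means as bars and the median of all rows, 4.08, as a dashed line. Members are ordered from the most negative to the most positive change, and the groups do not overlap for any of the 9.

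Receptor chains that rose included those for IL-6 and the shared IL-1 family chain. IL6R, the ligand-binding chain of the IL-6 receptor, read 6.84, 6.80 and 6.92 in control and 7.64, 7.64 and 7.53 in RKIP shRNA arrays. The arrays of each group lay close together and far from the other group. The change was 0.75 (SE 0.07, 95% interval 0.58 to 0.92, adjusted p = 0.000913), or 1.68-fold, and it stayed between 0.72 and 0.79 when single arrays were left out.

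IL1RAP read 5.65, 5.56 and 5.69 in control and 6.07, 6.13 and 6.05 in RKIP shRNA arrays. All RKIP shRNA arrays were above all control arrays, with a change of 0.45 (SE 0.07, adjusted p = 0.0048), or 1.37-fold. IL1RL1, which pairs with IL1RAP to bind IL-33, is outside the members and rose by 1.65 (SE 0.11, adjusted p = 0.000279) from a dim control mean of 3.84. Their ligand gene IL33 was dim in both groups, with a change of 0.05 ± 0.11 (SE).

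IL4R and IL17RE rose less stably. IL4R, the alpha chain through which IL-4 and IL-13 act, read 6.65, 6.80 and 6.80 in control and 7.03, 7.08 and 6.96 in RKIP shRNA arrays, a change of 0.27 (SE 0.07, adjusted p = 0.042). Its groups did not overlap, but its call was lost without any single array (adjusted p from 0.058 to 0.115) and after quantile normalization (adjusted p = 0.052). IL17RE, the chain that binds IL-17C together with IL17RA, read 4.86, 4.51 and 4.43 in control and 5.01, 5.16 and 5.16 in RKIP shRNA arrays, a change of 0.51 (SE 0.12, adjusted p = 0.027). Control replicate 1 was the high control array. The call held without that array (adjusted p = 0.0095) and was lost without any other single array (adjusted p up to 0.089).

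Among the 6 members named IL17R, IL17RE alone passed. IL17RA, the common chain of the IL-17 receptors, read 10.42, 10.51 and 10.53 in control and 10.73, 10.65 and 10.69 in RKIP shRNA arrays; the groups did not overlap, but the change of 0.20 (SE 0.07) had an adjusted p of 0.082. IL17REL, a receptor-like gene, was above 4.08 in both groups and did not pass. IL17RB, IL17RC and IL17RD were dim in both groups and did not pass. None of the 6 IL-17 ligands passed in limma, and none had an unadjusted p under 0.05, with changes from -0.02 to 0.18.

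CSF3R was the receptor chain that fell. It encodes the receptor for G-CSF, the growth factor of the neutrophil lineage. It read 6.45, 6.50 and 6.28 in control and 5.73, 5.96 and 6.07 in RKIP shRNA arrays. The highest RKIP shRNA array lay below the lowest control array. The change was -0.49 (SE 0.11, adjusted p = 0.020), or 1.40-fold lower, and the call was lost without control replicate 1, control replicate 2 or RKIP shRNA replicate 1 (adjusted p of 0.067, 0.071 and 0.054). Its ligand gene CSF3 had a change of 0.24 ± 0.14 (SE, adjusted p = 0.28). CSF1R, the receptor for M-CSF that marks monocytes, read 4.19, 4.31 and 4.26 in control and 4.56, 4.05 and 4.82 in RKIP shRNA arrays, so the groups overlapped and the change of 0.22 did not pass (adjusted p = 0.47). RKIP shRNA replicate 2 was its low array, and without that array CSF1R was called higher (adjusted p = 0.0389).

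Neither interferon-gamma receptor chain passed. IFNGR1, the ligand-binding chain, had a change of -0.11 (95% interval -0.28 to 0.05) and IFNGR2, the signalling partner, one of 0.12 (95% interval -0.05 to 0.30), with adjusted p-values of 0.31 each. IL9R, the receptor for IL-9, had a change of 0.25 ± 0.11 (SE, adjusted p = 0.16) with groups that did not overlap. In all, 19 receptor chains did not pass, with changes between -0.21 and 0.26. Of these, 10 were dim in both groups: IL7R, IL17RB, IL17RC, IL17RD, IL1RL2, IL1RAPL1, IL1RAPL2, IL21R, IL23R and IL31RA.

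**Figure D3:**
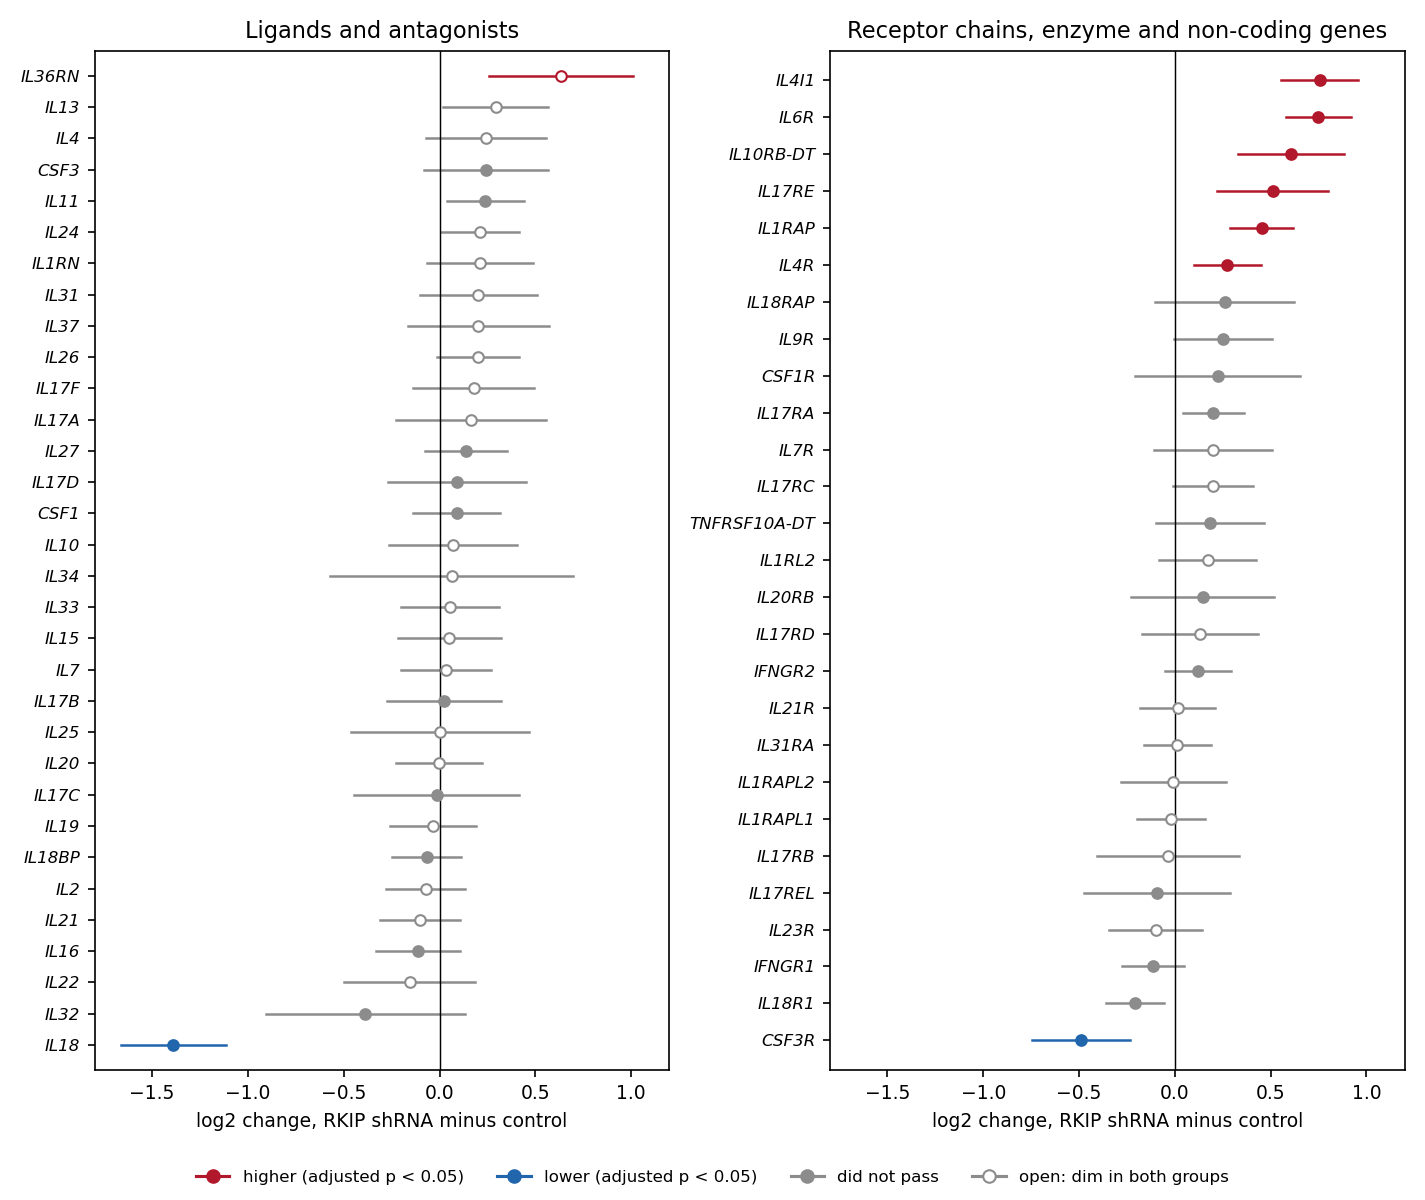
Log2 change, RKIP shRNA minus control, of all 59 members with 95% intervals from limma, ordered by size within ligands and antagonists (left) and the other members (right). Red and blue mark members called higher or lower at adjusted p under 0.05, grey those that did not pass, and open circles members dim in both groups, of which IL36RN alone was called.

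The other 2 members that rose encode neither a cytokine nor a receptor. IL4I1 encodes a secreted L-amino acid oxidase that degrades phenylalanine and is induced by IL-4. It read 7.06, 6.92 and 6.88 in control and 7.59, 7.78 and 7.75 in RKIP shRNA arrays. The groups were well apart, with a change of 0.76 (SE 0.08, adjusted p = 0.0016), or 1.69-fold. IL10RB-DT, a long non-coding RNA that starts divergently from the IL-10 receptor gene IL10RB, read 4.38, 4.06 and 4.24 in control and 5.00, 4.67 and 4.84 in RKIP shRNA arrays, a change of 0.61 (SE 0.12, adjusted p = 0.012). Its lowest RKIP shRNA array lay above its highest control array. TNFRSF10A-DT had a change of 0.18 ± 0.12 (SE, adjusted p = 0.36), and its other probe one of 0.26 ± 0.08 (SE), with an adjusted p of 0.069 in a fit over all named probes. No other member had more than 1 probe, so no second probe checks them.

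IL18, IL6R, IL4I1, IL1RAP and IL10RB-DT were the 5 members called under every one of the 12 alternatives tried. The sequences around the starts of the 4 of them with an entry are shown because these genes kept their call in every fit. All alternatives start from the deposited values, so the authors' own summarisation and normalisation were not varied. The sequences are RefSeq windows of GRCh38.p14, from 250 bases before to 50 after the start, given 5′ to 3′ on the gene's strand, and 44 of the 59 members matched an entry. The windows lie at chr1:154405093-154405392 (plus strand), chr19:49929455-49929754 (minus strand), chr3:190513835-190514134 (plus strand) and chr21:33266211-33266510 (minus strand). Capitals mark matches, on either strand, to the AP-1 letters TGANTCA, the STAT letters TTCNNNGAA or the NF-kB letters GGNNTTTCC.
IL6R: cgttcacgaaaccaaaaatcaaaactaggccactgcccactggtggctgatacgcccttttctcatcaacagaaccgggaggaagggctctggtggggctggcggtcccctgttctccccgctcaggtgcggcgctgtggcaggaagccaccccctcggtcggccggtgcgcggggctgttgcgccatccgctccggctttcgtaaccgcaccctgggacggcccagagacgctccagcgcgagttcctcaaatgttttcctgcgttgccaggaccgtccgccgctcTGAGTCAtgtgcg
IL4I1: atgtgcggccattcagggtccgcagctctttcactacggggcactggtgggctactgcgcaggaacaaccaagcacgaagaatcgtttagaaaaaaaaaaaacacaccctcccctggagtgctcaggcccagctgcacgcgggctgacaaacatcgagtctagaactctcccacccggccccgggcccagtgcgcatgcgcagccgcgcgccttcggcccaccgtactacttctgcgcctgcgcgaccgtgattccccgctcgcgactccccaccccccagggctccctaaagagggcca
IL1RAP: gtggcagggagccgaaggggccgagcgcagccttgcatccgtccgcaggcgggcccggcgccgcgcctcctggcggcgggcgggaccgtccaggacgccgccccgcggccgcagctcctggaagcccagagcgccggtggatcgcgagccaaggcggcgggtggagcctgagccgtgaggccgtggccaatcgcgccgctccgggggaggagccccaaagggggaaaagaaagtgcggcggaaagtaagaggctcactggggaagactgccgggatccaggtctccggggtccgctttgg
IL10RB-DT: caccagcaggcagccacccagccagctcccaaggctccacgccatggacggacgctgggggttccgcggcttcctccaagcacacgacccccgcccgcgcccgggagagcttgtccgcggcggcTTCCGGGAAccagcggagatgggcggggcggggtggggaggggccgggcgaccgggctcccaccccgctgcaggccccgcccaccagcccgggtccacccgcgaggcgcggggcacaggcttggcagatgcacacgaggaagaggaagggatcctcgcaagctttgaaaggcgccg

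The capitals in the IL6R window are 1 AP-1 match, and those in the IL10RB-DT window are 1 STAT match; the letters searched were found nowhere else in the windows printed, and no matches overlapped. Over all 35116 windows the AP-1 letters occurred in 7.71%, the STAT letters in 7.66% and the NF-kB letters in 6.26%. Over the 74 windows of members they occurred in 13.5%, 9.46% and 18.9%, which are 10, 7 and 14 windows; some members have several overlapping windows, so these are not independent. A match is a description of letters and no binding site. The GC content of the windows printed was 64.0% for IL6R, 63.0% for IL4I1, 73.7% for IL1RAP and 74.0% for IL10RB-DT, where the median of all windows was 58.7%. The window of IL4I1 coincides over all 300 bases with that of NUP62, the nucleoporin gene on the same strand, so it is no sequence of IL4I1 alone. The window of IL10RB-DT overlaps that of IL10RB by 206 bases, and their starts lie 107 bases apart on opposite strands.

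Protein-coding genes within 2 places of the called members, in the order of the RefSeq table, did not all move with them. ATF5, a stress-response transcription factor gene near IL4I1, fell by 2.33 (SE 0.08, adjusted p = 2.5e-05), while IL4I1 rose, and AKT1S1 on the other side rose by 0.40 (adjusted p = 0.021). Beside IL18, BCO2, a carotenoid-cleaving oxygenase gene, fell by 0.36 (adjusted p = 0.042), TEX12 had a change of -0.48 (adjusted p = 0.10) and TIMM8B, a mitochondrial import gene, rose by 0.58 (adjusted p = 0.0018). Near IL6R, AQP10 and SHE had changes of 0.09 and 0.04, and near IL1RAP, TMEM207 and OSTN had changes of -0.26 and -0.18; none of these passed. IL1RL1 lies between members in the IL-1 receptor cluster: IL1RL2 before it and IL18R1 and IL18RAP after it did not pass, with changes of 0.17, -0.21 and 0.26. IL21R next to IL4R had a change of 0.02 ± 0.08 (SE), and IL17RC next to IL17RE one of 0.20 ± 0.09 (SE), neither of which passed.

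Related ligands and receptors with other names went both ways. Of 23 measured genes in this list, 5 rose, 4 fell and 14 did not pass, with a median change of 0.05. The called share was 39.1%, against 20.2% of all genes and 29.2% of those at or above 4.08, where 11 of the 23 lay. The lists here and below were chosen with earlier results of these data known, so their called shares are descriptions and no test. Besides IL1RL1, CXCL8, a neutrophil chemoattractant, rose by 3.05 (SE 0.19) and TNF, the founding TNF family ligand, by 1.29 (SE 0.11). KITLG, the stem cell factor gene and ligand of KIT, rose by 1.15 (SE 0.07, adjusted p = 0.000228) from a dim control mean of 3.39. RELT, a TNF receptor family member, rose by 0.38 (SE 0.07, adjusted p = 0.013, and 0.051 when its probes were averaged). FLT3LG, the ligand of the progenitor receptor FLT3, fell by 1.09 (SE 0.11, adjusted p = 0.0013), and FLT3 itself fell by 0.48 (SE 0.09, adjusted p = 0.010) to a dim mean of 3.69. TSLP, an epithelial cytokine of the IL-7 family, fell by 0.70 (SE 0.08, adjusted p = 0.0019) to a dim mean of 3.67, and by 0.36 when its probes were averaged. SIGIRR, an inhibitory member of the IL-1 receptor family, fell by 0.29 (SE 0.08, adjusted p = 0.037), a call that was lost without any single array (adjusted p up to 0.113).

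Among signalling genes of the JAK-linked receptors STAT5A fell most. Of 16 measured JAK-STAT genes 1 rose, 3 fell and 12 did not pass, or 25.0% called against 20.2% of all genes and 29.2% of genes at or above 4.08, where 12 of the 16 lay (median change -0.13). STAT5A, a transcription factor used by CSF, IL-3 and other receptors, stood at 8.52 in control and 7.66 in RKIP shRNA arrays and fell by 0.86 (SE 0.08, adjusted p = 0.000704). JAK2, a kinase of the G-CSF receptor and related receptors, fell by 0.45 (SE 0.10, adjusted p = 0.023). That call was lost without control replicate 1, control replicate 2 or RKIP shRNA replicate 1 (adjusted p up to 0.080). SOCS4, a suppressor of cytokine signalling, fell by 0.29. When single arrays were left out, SOCS4 kept its call only without RKIP shRNA replicate 3 (adjusted p otherwise up to 0.079). CISH, a feedback inhibitor of STAT5, rose by 0.32. In the same fits CISH kept its call only without control replicate 1 or RKIP shRNA replicate 2 (adjusted p otherwise up to 0.115).

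In the IL-1 receptor list 1 of 9 measured genes rose, 2 fell and 6 did not pass, or 33.3% called; all 9 lay at or above 4.08, where 29.2% of all genes were called (median change -0.16). IRAK1, a kinase that the IL-1 receptor complex recruits, rose by 0.42 (SE 0.07, adjusted p = 0.0055), while PELI1 and PELI2, ubiquitin ligases that act on IRAK proteins, fell by 0.51 (adjusted p = 0.0031) and 0.87 (adjusted p = 0.013). PELI2 lost its call without control replicate 1 or control replicate 2 (adjusted p up to 0.051). Of 9 measured NF-kB genes, out of 17 listed, 3 rose, 1 fell and 5 did not pass, or 44.4% called. These 9 also lay at or above 4.08, with its share of 29.2% (median change -0.05). CHUK, the IKK alpha kinase, rose by 0.43 and NFKB2, the p100 precursor, fell by 0.43 (SE 0.08, adjusted p = 0.012). NFKB1, the p105 precursor, and TBK1, an IKK-related kinase, rose by 0.39 each. When single arrays were left out, NFKB1 kept its call only without control replicate 2 or RKIP shRNA replicate 2 (adjusted p otherwise up to 0.068). TBK1 kept it only without control replicate 1 or RKIP shRNA replicate 2 (adjusted p otherwise up to 0.090).

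In the TNF receptor list 2 of 19 measured genes rose, 4 fell and 13 did not pass, or 31.6% called; all 19 lay at or above 4.08, where 29.2% of all genes were called (median change -0.01). RBCK1, the HOIL-1 subunit of the linear ubiquitin ligase complex, stood at 9.82 in control and 8.46 in RKIP shRNA arrays and fell by 1.36 (SE 0.08, adjusted p = 0.000228). RNF31, the catalytic subunit of that complex, rose by 0.27 (adjusted p = 0.033), a call that held only without control replicate 1 when single arrays were left out (adjusted p otherwise up to 0.112), and the remaining subunit SHARPIN had a change of 0.28 that did not pass (adjusted p = 0.12). TRAF5, an adaptor of TNF receptors, fell by 0.60 (SE 0.09, adjusted p = 0.0052), and CYLD, a deubiquitinase, fell by 0.27 but lost its call without any single array (adjusted p up to 0.091). FADD, the death receptor adaptor, rose by 0.40, a call that was lost without control replicate 2 (adjusted p = 0.053) and when its probes were averaged (adjusted p = 0.16).

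Of 7 measured genes for cytokine processing and shedding, 2 rose, 1 fell and 4 did not pass, or 42.9% called against 20.2% of all genes and 29.2% of those at or above 4.08, where 5 of the 7 lay (median change 0.01). PYCARD, the ASC adaptor that links inflammasome sensors to caspase-1, rose by 0.99 (SE 0.08, adjusted p = 0.000491), from 8.06 to 9.05. IL18, whose product that route matures, fell. Neither CASP1, the caspase-1 gene, nor IL1B is among the members or list genes measured here, so the route is covered only in part. ADAM10, a sheddase that can release receptors such as IL6R, fell by 0.56 (SE 0.09, adjusted p = 0.0056), and ADAM17, another sheddase, had a change of 0.07 that did not pass. AIM2, a DNA sensor of the inflammasome, rose by 0.47 between dim values. When single arrays were left out, AIM2 kept its call only without RKIP shRNA replicate 2 (adjusted p otherwise up to 0.088). Over the 6 lists together 29 of 83 measured genes were called, or 34.9% against 20.2% of all genes. Of the 83, 65 lay at or above 4.08, where 29.2% of all genes were called. Because the lists were chosen with earlier results known, these shares describe the lists and test nothing. The count of called list genes was 18 without control replicate 2 and 19 without RKIP shRNA replicate 1. In these fits 13.3% and 13.7% of all genes were called.

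**Figure D4:**
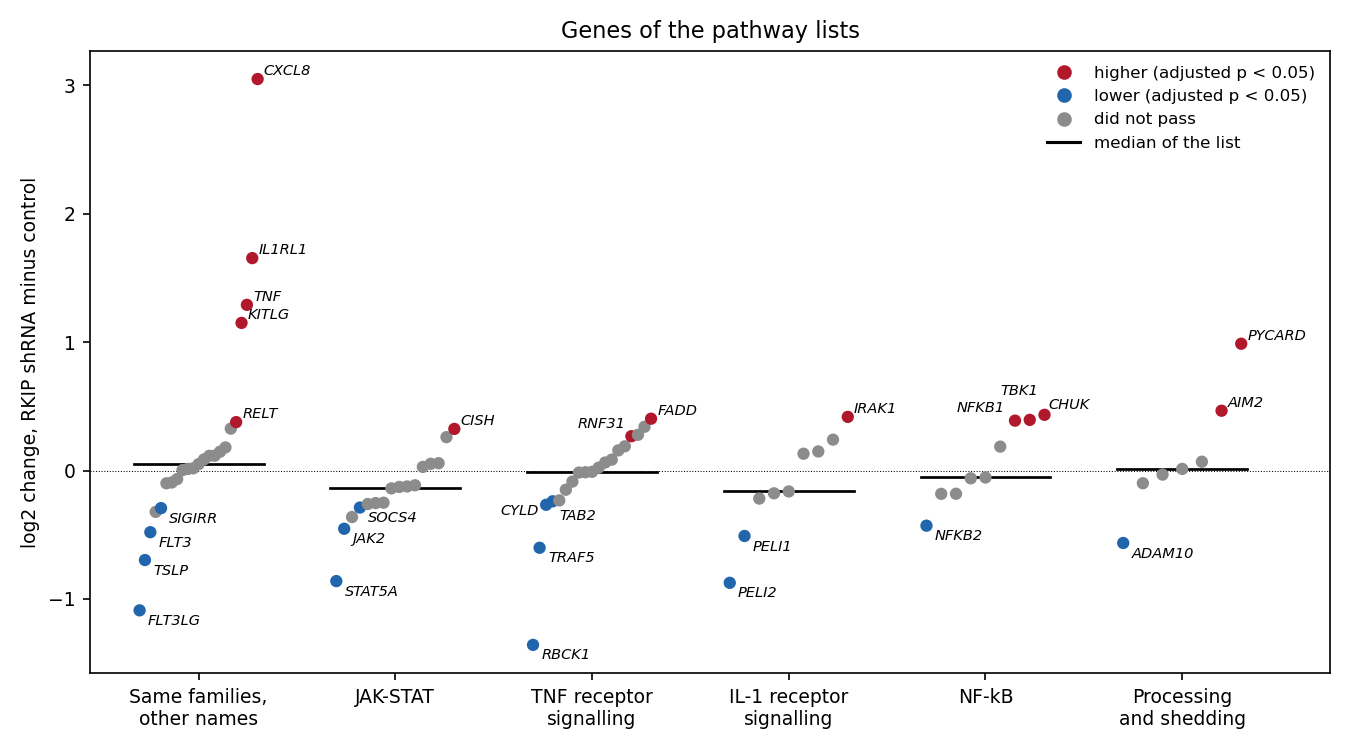
Log2 change, RKIP shRNA minus control (vertical), of each measured gene in the 6 pathway lists, ordered by size within a list, with genes called higher in red, called lower in blue, those that did not pass in grey and the list median as a black bar. Called genes are named, from RBCK1 at -1.36 to CXCL8 at 3.05, and the list medians lie between -0.16 and 0.05.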

How the data were processed

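Total RNA, 250 ng per array, was measured on Affymetrix Human Gene 2.0 ST arrays, per the labels and the design text. The authors deposited 1 table of 53617 rows with log2 values, a scale read from their range of 0.72 to 14.0; the authors' summarisation and normalisation are not stated in the sources used here, and no batch is in the labels. The supplied array annotation gave 1 gene symbol to 16098 rows, several to 0 and left 37519 unnamed here. The probe with the highest 6-array mean was kept for each of 14884 genes, which mattered for 779. RKIP shRNA was compared with control by lmFit and eBayes of limma 3.58.1 (R 4.3.3; 7.01 total degrees of freedom) on the deposited values, with no filter, and checked on simulated arrays. No 2 arrays were duplicates (58 to 144 identical values per pair).

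Members and lists were chosen with earlier results of these data known. Named were the called members, per role the 3 brightest and 2 largest uncalled changes, members with an adjusted p under 0.10, and up to 4 called genes per pathway list. Other members, the neighbouring genes, RELT, FLT3LG, FLT3, TSLP, SIGIRR, RNF31, SHARPIN and ADAM17 were named outside this rule. Of 125 pathway genes listed, 83 had a named probe. By list these were 23 of 32 with other names, 16 of 27 for JAK-STAT and 19 of 27 for TNF receptors. They were 9 of 10 for IL-1 receptors, 9 of 17 for NF-kB and 7 of 12 for processing and shedding. Alternatives were quantile normalization, median centring, a trended robust prior, the replicate number as a block, dim genes left out, the mean of probes and each array left out. Marker sums add linear values.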

Additional observations from a re-analysis of the deposited data

How the results depend on the processing

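IL18, IL6R, IL4I1, IL1RAP, IL10RB-DT and PEBP1 kept their direction and their call under all 12 alternatives. PEBP1 lay between -1.54 and -1.41, with a limma adjusted p of at most 0.0047. For these genes the trended prior, the replicate block, the fit without dim genes and the mean of probes leave the log2 change as it was. In those fits only the call could move. Leaving out single arrays gave 4 to 5 members higher, 1 to 2 lower and 18 to 25 called pathway genes, against 7, 2 and 29 with all arrays. Without RKIP shRNA replicate 1 the count of members higher was 4 and lower was 1, and without RKIP shRNA replicate 3 it was 4 higher; without control replicate 1 or control replicate 2 it was 1 lower. IL17D, between -0.058 and 0.19 in these fits, changed sign without control replicate 2, to -0.019, and, with RKIP shRNA replicate 2 left out, to -0.058. A fit with fewer arrays also calls fewer genes in all, from 13.3% to 16.1%. With a trended and robust prior, or with dim genes left out, IL17RA and IL18R1 were called too; the latter fit held 26 members, called IL11 as well and could give no value for dim members such as IL36RN. Quantile normalization and median centring moved the median change of all genes by -0.01 and 0.01.

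The numbering of replicates paired no arrays: deviations of same-numbered arrays correlated at 0.02, 0.00 and -0.02 over genes. With the number as a replicate block, 5 members were higher and 1 lower, and 14.4% of all genes were called. CSF3R (limma adjusted p = 0.056), IL17RE (0.070) and IL4R (0.092) were not called. Pathway genes called were 22, against 29 in the main fit. NFKB1 (limma adjusted p = 0.061), JAK2 (0.067), SOCS4 (0.070), CYLD (0.076), RNF31 (0.0885) and SIGIRR (0.0886) were among those that lost their call. Among values of the genes named by the rule above, 217 of 248 for members and 223 of 262 for pathway genes kept their direction and side of the threshold. Members that stayed uncalled count among those kept. Of the other member values, 23 were lost calls, all of called members, 6 were gained calls and 2 were changes of sign. The other 39 pathway values were lost calls. With 3 arrays a group and no detection calls, changes of dim genes could not be bounded on a true scale.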
